A study of Mus musculus with 42 samples.

Results

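Microglia sorted from the hippocampus of germ-free 5xFAD mice were compared with microglia sorted from the hippocampus of germ-free wild-type mice. The libraries were chosen by genotype, housing and tissue alone: the 3 untreated germ-free 5xFAD hippocampus libraries (FAD_526, FAD_527 and FAD_531, numbered by animal) and the 3 untreated germ-free wild-type ones (WT_529, WT_530 and WT_532), 6 of the 42 samples of the series. All animals were C57BL/6 mice, and those of the hippocampus groups were 16 weeks old. Cells were isolated on a density gradient and sorted as CD11b+CD45lo, the surface profile of microglia, and their RNA was sequenced in bulk. The series also holds hippocampal 5xFAD and wild-type microglia from specific-pathogen-free (SPF) mice, which carry a microbiota, and from germ-free mice given acetate for 8 weeks (4 libraries per genotype in each). The comparison asks which microglial transcripts differ with the 5xFAD genotype in the absence of microbes.

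The 5xFAD line expresses human transgenes, including APP, with mutations of familial Alzheimer's disease, driven by the neuronal Thy1 promoter, and amyloid-beta plaques form in the brain from an early age. The promoter drives the transgenes in neurons and not in the cells sorted here. Microglia that surround plaques are known to pass from a homeostatic state, marked by P2ry12, Tmem119 and Cx3cr1, to a disease-associated state. That state is described in 2 steps, an early one with Apoe, Tyrobp, B2m and lysosomal genes (stage 1) and a later one that needs the lipid receptor Trem2 and adds Cst7, Itgax, Axl, Lpl and others (stage 2). Germ-free mice are raised without any microorganisms, and their microglia are known to be less mature than those of colonised animals.

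The 6 libraries held 16382823 to 22532410 counts. Expression is given as CPM, the count scaled to a common library size. Correlations of log2 CPM within a group were 0.9512 to 0.9545 in 5xFAD and 0.9259 to 0.9469 in wild type, and each of the 6 pairs of libraries within a group differed by more than counting noise (chi-square per degree of freedom 15.92 to 37.85, against 1 for sampling alone). Wild-type library WT_530 stood apart: 17750 genes were detected in it against 19286 to 20031 in the other 5, and its summed level of immediate-early and dissociation genes was 8173 CPM against 4510 to 5465. Several neutrophil genes stood out in library WT_532: S100a8 (76.3 CPM), S100a9 (75.2 CPM), Ngp (39.6 CPM), Ltf (20.7 CPM) and Camp (16.5 CPM). Each was at 0.342 CPM or less in the other 5. Retnlg, Ly6g and Mmp8 of the same list had no count in any library. Microglial identity was high in all 6, with the survival receptor gene Csf1r at 9414 to 12122 CPM. Among markers of other cells, Ly6c2 of monocytes, Cldn5 of endothelium, Cd163 and Lyve1 of border macrophages, Gja1 of astrocytes and Cd3e of T cells had no count in any of the 6, while other markers of the same lists were detected. Mrc1 of border macrophages was at 1.27 to 9.32 CPM, Ccr2 of monocytes at 0.753 to 7.78 CPM, and Pecam1 and Kdr of endothelium at 10.4 to 22.99 CPM and 7.62 to 14.2 CPM. Flt1 of endothelium was at 0.058 to 1.496 CPM in wild type and 4.02 to 4.87 CPM in 5xFAD, and the monocyte gene Chil3 was at 14.5 CPM in WT_532 alone. Y-linked genes were expressed in every library (246 to 334 CPM summed), so the groups did not differ in sex by this measure. The transgenes are human and the table lists mouse genes, so mouse App (176, 177 and 141 CPM in wild type, 195, 198 and 218 CPM in 5xFAD) does not check the genotype labels, and Thy1 was at 0 throughout. In the SPF arm, the mean log2(CPM + 1) over the disease-associated genes was 6.978 in 5xFAD library SPF_FAD_2152. That lay within the SPF wild-type range of 6.756 to 6.993, while the other 3 SPF 5xFAD libraries lay at 8.409 to 8.832. Whether its label is wrong or its response was weak was not tested. The main SPF results are therefore given with and without SPF_FAD_2152. The library was singled out by genes that are then compared, so the results without it are in part fixed by that choice.

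Of 17063 genes tested, 95 were higher in germ-free 5xFAD microglia (0.557% of the genes tested) and 34 were lower (0.199%) at an adjusted p under 0.05 by edgeR's quasi-likelihood test. Those that rose with large folds included genes of the disease-associated state and a set of transcripts that were almost absent from wild type. Without an adjustment for multiple testing 1810 genes (10.6%) had p under 0.05, and the median log2 difference over all genes was -0.002. Groups of 3 against 3 allow an exact permutation p no lower than 0.1, so calls rest on the model fitted to all 22 hippocampus libraries. In bulk RNA, a larger share of cells in a given state cannot be told apart from more RNA per cell. The lists used below were chosen with earlier results of these data known, so their counts are descriptions.

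**Figure D1:**
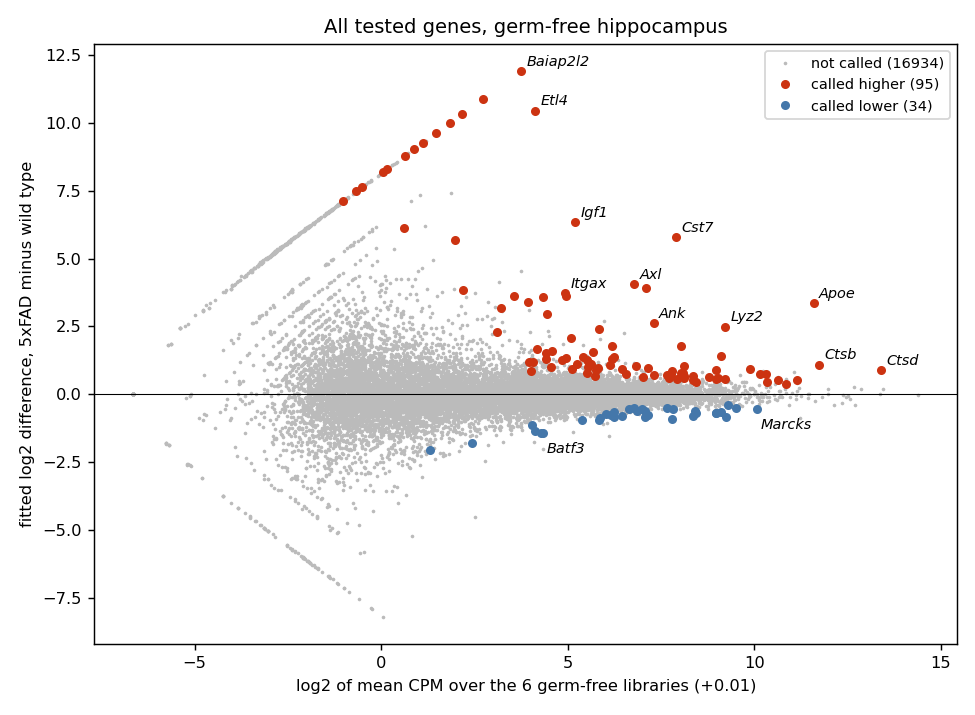
Fitted log2 difference (5xFAD minus wild type) of each of 17063 tested genes against the log2 of its mean CPM over the 6 germ-free libraries. Red points are the 95 genes called higher, blue points the 34 called lower and grey points the rest. The diagonal edges of grey and red points hold genes with no count in 1 of the groups, whose fitted value depends on the prior count and is no estimate of a fold.

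Among the 7 stage 1 genes of the disease-associated state, 4 rose and none fell. Ctsd, the lysosomal aspartyl protease cathepsin D, was at 7600, 7178 and 7757 CPM in wild type and at 15945, 13390 and 12521 CPM in 5xFAD. It rose by a log2 difference of 0.89 (SE 0.14, adjusted p = 0.00143). Ctsb, the cysteine protease cathepsin B, was at 2021, 2270 and 2173 CPM in wild type and at 5304, 4616 and 3808 CPM in 5xFAD (log2 difference 1.09, SE 0.16, adjusted p = 0.00142). The groups of both proteases were far apart for the spread within them. Lyz2, the antibacterial lysozyme of myeloid cells, went from 173, 145 and 222 CPM to 1274, 1011 and 737 CPM, a 5.6-fold rise (adjusted p = 0.00142). Apoe, the lipid carrier whose human alleles modify Alzheimer's risk, was at 719, 583 and 344 CPM in wild type and at 7047, 5831 and 3893 CPM in 5xFAD. Its fitted fold was 10.2 (log2 difference 3.35, SE 0.57, adjusted p = 0.00604), and adjusted p was 0.0901 without WT_530 and 0.0571 without WT_532. The remaining 3 did not pass in the main fit: Tyrobp, the signalling adaptor of Trem2 (log2 difference 0.85, adjusted p = 0.0851), B2m, the light chain of MHC class I (0.83, adjusted p = 0.0769), and Fth1, the ferritin heavy chain (0.63, adjusted p = 0.0907). All 7 stage 1 genes were called with DESeq2, and all 7 with only the germ-free groups in the fit. In all 7 genes each 5xFAD library lay above each wild-type library. Over all genes tested 9.11% had that pattern and 7.56% the opposite.

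Of the 26 stage 2 genes, 12 rose and none fell, and the list's median log2 difference was 1.41 against -0.002 over all genes. Taken with stage 1, 16 of 33 genes rose, all 33 had a log2 difference above 0, and in 31 of 33 the groups did not overlap. The surface receptors varied widely in their response. Axl, a receptor tyrosine kinase for bridging ligands on dying cells and plaques, was at 7.95, 13.7 and 15.8 CPM in wild type and at 245, 215 and 158 CPM in 5xFAD. That was a log2 difference of 4.04 (SE 0.62, adjusted p = 0.00227). Itgax, the integrin chain CD11c, was at 4.39, 4.98 and 3.47 CPM in wild type and at 63, 52.6 and 52.9 CPM in 5xFAD (log2 difference 3.71, SE 0.79, adjusted p = 0.0261). Its adjusted p lay between 0.0685 and 0.153 when any 1 of the 6 libraries was left out. Lilrb4a, an inhibitory immunoglobulin-like receptor with a close paralogue that could share its reads, rose 4.25-fold (13.5, 12.1 and 13 CPM against 69.4, 44.4 and 50.3 CPM, adjusted p = 0.0187). Its adjusted p was 0.104 without WT_530, 0.0644 without WT_532 and 0.0965 without FAD_526. Trem2 itself did not pass: it was at 1070, 1392 and 1268 CPM in wild type and at 1583, 1491 and 1376 CPM in 5xFAD (log2 difference 0.25, 95% interval -0.01 to 0.52), and the groups overlapped. Clec7a, the beta-glucan receptor dectin-1, was at 7.33, 27.6 and 15.1 CPM in wild type and at 138, 112 and 76.1 CPM in 5xFAD. Its groups did not overlap, yet it missed the threshold in the main fit (log2 difference 2.71, SE 0.87, adjusted p = 0.195). Clec7a passed in 2 of 13 alternatives.

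The secreted products of the stage 2 list included the genes with the largest log2 differences of the list. A wider list of 17 cystatins, granulins and secreted plaque-response factors, which shares most of these genes, had 8 that rose, none that fell and a median of 1.76. Cst7, which encodes cystatin F, an inhibitor of lysosomal cysteine proteases, was at 4.33, 10.2 and 11.1 CPM in wild type and at 602, 455 and 356 CPM in 5xFAD. The fitted fold was 55.2 (log2 difference 5.79, SE 0.81, adjusted p = 0.00142). Igf1, the growth factor IGF-1, was nearly silent in wild type at 0.103, 2.32 and 0.363 CPM and stood at 103, 53.1 and 62.1 CPM in 5xFAD (log2 difference 6.33, SE 0.93, adjusted p = 0.00142). Lpl, the triglyceride-hydrolysing lipoprotein lipase, was at 2.73, 14.9 and 32.4 CPM in wild type and at 354, 243 and 166 CPM in 5xFAD (log2 difference 3.93, SE 0.78, adjusted p = 0.0188). Its adjusted p was 0.157 without WT_530, 0.0708 without WT_529, 0.104 without FAD_526 and 0.0791 without FAD_527. Smaller rises were found for the chemokine Ccl6 (2.06-fold, adjusted p = 0.0471), the protease inhibitor Serpine2 (1.67-fold, adjusted p = 0.0188) and the metalloprotease inhibitor Timp2 (1.49-fold, adjusted p = 0.0188). Ccl6 missed the threshold without any 1 of the 6 libraries (0.0929 to 0.187). Serpine2 and Timp2 missed it without WT_530 (0.0901 and 0.129), WT_532 (0.107 and 0.0556), FAD_526 (0.0823 and 0.156) or FAD_527 (0.083 and 0.0645). Csf1, a ligand of the microglial survival receptor, was at 19.2, 24 and 24.7 CPM in wild type and at 111, 90.3 and 77.9 CPM in 5xFAD. It did not pass in the main fit (adjusted p = 0.0862) but passed in 3 of 13 alternatives. Spp1, osteopontin, stayed low in both groups (0, 4.98 and 1.92 CPM against 12.4, 17.9 and 8.85 CPM, adjusted p = 0.362). Among the other stage 2 members Ank, a membrane exporter of pyrophosphate, had the smallest p of the list: 46.1, 49.5 and 36.9 CPM in wild type and 310, 272 and 232 CPM in 5xFAD (log2 difference 2.62, SE 0.32, adjusted p = 0.000266). Gusb, lysosomal beta-glucuronidase, rose 1.84-fold (adjusted p = 0.00143), and Ctsl, cathepsin L, 1.68-fold (adjusted p = 0.0188). Ctsl passed only without FAD_531 among the 6 fits that left out a library (0.0527 to 0.129 in the others). Cst7, Igf1, Axl, Ank and Gusb kept their calls in all 6.

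**Figure D2:**
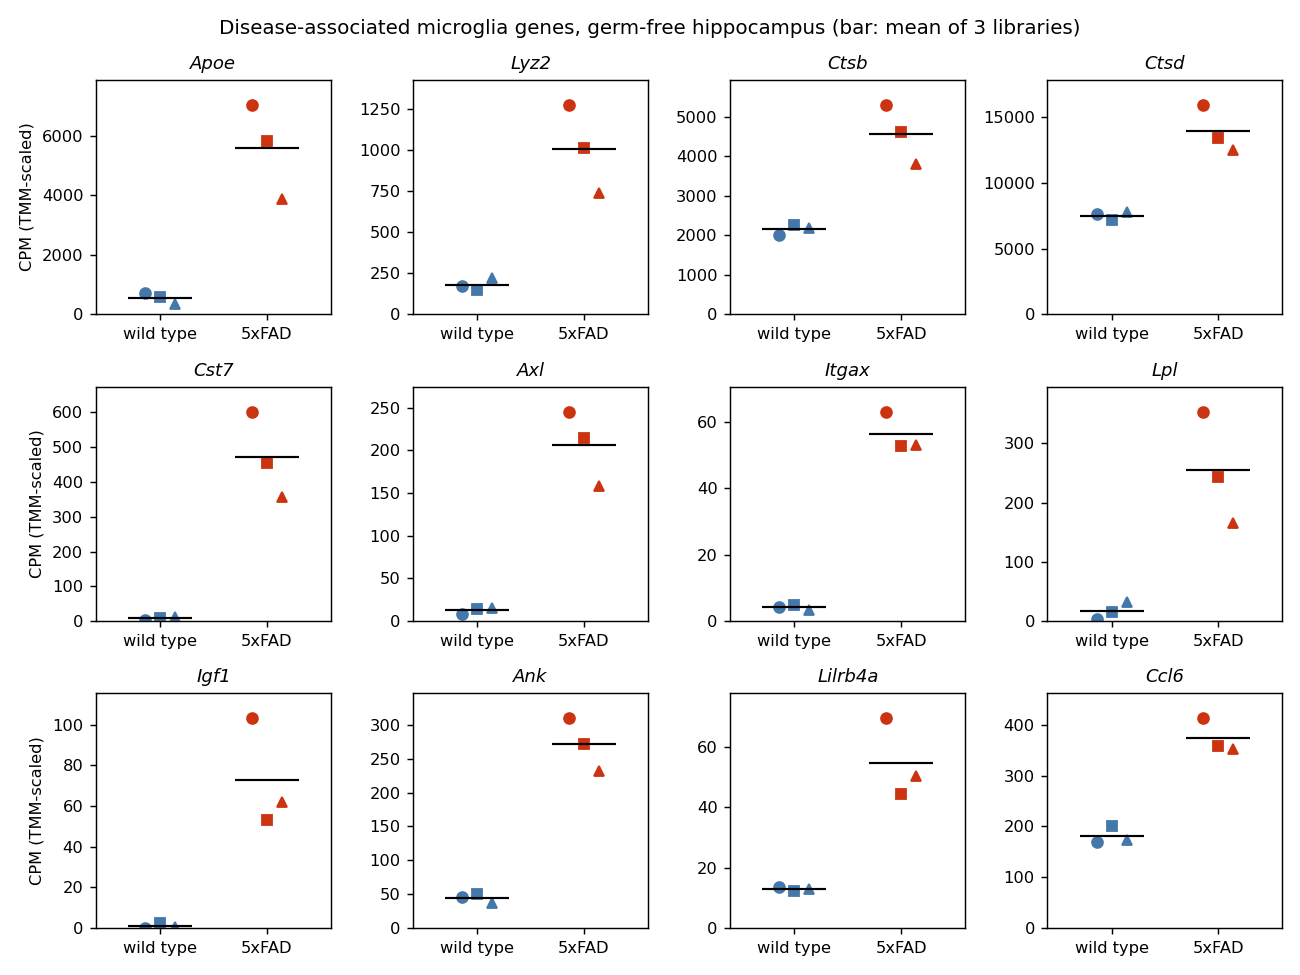
CPM (TMM-scaled, linear axis from 0) of 12 disease-associated genes in each germ-free hippocampus library, wild type in blue (circle WT_529, square WT_530, triangle WT_532) and 5xFAD in red (circle FAD_526, square FAD_527, triangle FAD_531); the bar is the mean of 3. The groups do not overlap in any panel, and FAD_526 is the highest 5xFAD library in each.

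The 5xFAD libraries, 1 per animal, were not at equal levels among the genes called, and a difference in response between animals was not tested. Among the 16 disease-associated genes that rose, FAD_526 was the highest of the 3 in 15 and FAD_531 the lowest in 13. The mean log2(CPM + 1) over the disease-associated list was 8.612 in FAD_526, 8.407 in FAD_527 and 8.191 in FAD_531, against 6.387, 6.745 and 6.712 in WT_529, WT_530 and WT_532. Over all 95 genes that rose, FAD_526 was highest of the 5xFAD libraries in 58 and FAD_531 lowest in 49. Among the wild-type libraries WT_529 was highest in 48 of the 95 and WT_530 lowest in 45. Over the 34 genes that fell, FAD_526 was also the highest 5xFAD library in 18, which put it nearest to wild type there. FAD_531 had the deepest library (22532410 counts) and FAD_526 the shallowest (16382823), and the part of depth in this order was not tested.

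The stretches in front of the annotated starts of Cst7, Igf1 and Ctsd are shown because these genes rose together and each holds a different set of the words searched. Each runs from 250 bases before the start to 10 bases after it, on the strand of the gene, as given by RefSeq on build GRCm38.p6. Capitals mark 3 searched words on either strand: GAGGAAG, a core bound by the microglial factor PU.1, CACGTG, the E-box bound by lysosomal regulators of the TFEB family, and TGANTCA, the AP-1 word. Cst7 lies on the plus strand at chr2:150570165-150570424, Igf1 on the plus strand at chr10:87860861-87861120 and Ctsd on the minus strand at chr7:142387818-142388077.
Cst7: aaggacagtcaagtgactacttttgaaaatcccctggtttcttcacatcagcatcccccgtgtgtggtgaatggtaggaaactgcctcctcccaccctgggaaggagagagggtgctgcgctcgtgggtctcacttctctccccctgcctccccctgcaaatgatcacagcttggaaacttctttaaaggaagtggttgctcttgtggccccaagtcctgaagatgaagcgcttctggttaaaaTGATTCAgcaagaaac
Igf1: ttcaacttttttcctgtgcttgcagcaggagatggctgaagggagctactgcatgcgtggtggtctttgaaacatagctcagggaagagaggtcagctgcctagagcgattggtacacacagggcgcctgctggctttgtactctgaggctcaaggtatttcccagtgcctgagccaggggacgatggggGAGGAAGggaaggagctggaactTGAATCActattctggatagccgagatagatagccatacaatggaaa
Ctsd: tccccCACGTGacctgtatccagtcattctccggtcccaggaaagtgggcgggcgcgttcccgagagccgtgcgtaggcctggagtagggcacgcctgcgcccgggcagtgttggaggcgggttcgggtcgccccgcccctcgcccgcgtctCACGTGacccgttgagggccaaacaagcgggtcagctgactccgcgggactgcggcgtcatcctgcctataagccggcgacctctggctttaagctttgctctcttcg
Cst7 holds TGANTCA from 6 bases before its start, Igf1 holds GAGGAAG at 60 and TGANTCA at 37 bases before, and Ctsd holds CACGTG at 245 and at 98 bases before. A window of 250 bases before to 50 after a start was on file for 72 of the 95 genes that rose (96 windows). CACGTG was found in 13.5% of these windows, against 9.7% of the windows of all tested genes and 7.2% of all windows. GAGGAAG was found in 12.5% against 13.8% and 13.6%, and TGANTCA in 6.2% against 5.2% and 7.8%. The words do not overlap one another, and a match describes the letters only.

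Lysosomal and phagocytic genes formed the next group. Of 33 listed genes 32 were tested (Atp6v0d2, a vacuolar ATPase subunit, was too low), 9 rose, none fell and 23 did not pass, with a median log2 difference of 0.29. Several of the 9 (Axl, Ctsb, Ctsd and Ctsl) belong to the disease-associated lists as well. Hexa, the alpha chain of beta-hexosaminidase, was at 589, 665 and 689 CPM in wild type and at 1452, 1195 and 1055 CPM in 5xFAD (log2 difference 0.93, SE 0.14, adjusted p = 0.00142). Grn, the precursor of the lysosomal granulins, was at 1880, 1711 and 1965 CPM in wild type and at 3008, 2638 and 2314 CPM in 5xFAD (log2 difference 0.52, adjusted p = 0.0132). Ctsa, the protective protein cathepsin A, rose 1.42-fold (adjusted p = 0.0227), Lamp1, the major lysosomal membrane glycoprotein, 1.37-fold (adjusted p = 0.024) and Npc2, the cholesterol-binding protein of the lysosomal lumen, 1.57-fold (adjusted p = 0.0284). Without WT_530 or FAD_526 the adjusted p was 0.101 and 0.114 for Grn, 0.131 and 0.194 for Ctsa, 0.144 and 0.192 for Lamp1, and 0.104 and 0.162 for Npc2. The engulfment receptor Mertk (log2 difference 0.04, 95% interval -0.21 to 0.29) and the Fc receptor Fcgr3 (0.06, -0.26 to 0.37) did not pass. Outside the lists, and chosen after their values were seen, the lysosomal enzymes Galns (10.8, 13.5 and 11.7 CPM against 37.6, 38.5 and 32.2 CPM) and Glb1 (95.4, 48 and 79.3 CPM against 178, 146 and 135 CPM) and the lysosomal exonuclease Pld3 (205, 196 and 204 CPM against 414, 338 and 282 CPM) also rose. Galns kept its call in all alternatives. Without WT_530 or FAD_526 the adjusted p was 0.121 and 0.123 for Glb1 and 0.0771 and 0.102 for Pld3, and Glb1 also missed the threshold without WT_532 (0.0569), without FAD_527 (0.0548) and with only the germ-free groups in the fit (0.1). Without WT_530, or without FAD_526, 4 of the listed genes passed in place of 9, and without any other of the 6 libraries 6 to 9 passed. Hexa, Ctsb, Ctsd and Axl kept their calls in each of these fits.

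In the lipid handling list 19 of 21 genes were tested (Apoc2 and Apoc4 were too low), 4 rose, none fell and 15 did not pass, with a median log2 difference of 0.65. Those that rose were Apoe, Lpl, Npc2 and Plin2, the coat protein of lipid droplets (33, 30.7 and 48.4 CPM against 75.3, 58.8 and 75.2 CPM, adjusted p = 0.0446). Plin2 missed the threshold in each fit that left out a library other than WT_532 (0.0657 to 0.246). The cholesterol exporters had values on the other side and did not pass. Abcg1 was at 296, 322 and 300 CPM in wild type and at 207, 207 and 223 CPM in 5xFAD (adjusted p = 0.0545), and Abca1 was at 662, 517 and 525.1 CPM against 424, 455 and 409 CPM (adjusted p = 0.26). Fabp3, a fatty-acid-binding protein, was at 0.104 to 0.463 CPM in wild type and at 2.31 to 3.62 CPM in 5xFAD (adjusted p = 0.109). None of 19 tested cholesterol synthesis genes passed (median 0.34). Among genes outside the lists, picked after their values were seen, Nceh1, which hydrolyses stored cholesterol esters, rose 2.94-fold (adjusted p = 0.0188) and Cpt1a, the gatekeeper of mitochondrial fatty acid oxidation, rose 1.95-fold (adjusted p = 0.024). Both missed the threshold with only the germ-free groups in the fit (0.0746 for each). Without a library, Nceh1 missed it for WT_530, WT_532, FAD_526 or FAD_527 (0.0645 to 0.131), and Cpt1a for any library but WT_529 (0.0599 to 0.126).

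A few interferon-stimulated and antigen-presentation genes rose. All 25 interferon-response genes were tested, 3 rose, none fell, 22 did not pass, and the median log2 difference was 1.37. Ifi27l2a was at 1.5, 2.72 and 5.23 CPM in wild type and at 40.1, 47.4 and 24.8 CPM in 5xFAD (log2 difference 3.57, SE 0.71, adjusted p = 0.0174). Ifitm3, an inhibitor of viral entry, was at 4.08, 0.753 and 3 CPM against 23.9, 34.8 and 24.5 CPM (log2 difference 3.39, SE 0.70, adjusted p = 0.0192). Oas1a, an antiviral 2'-5'-oligoadenylate synthetase, was at 0.619, 2.49 and 2.33 CPM against 11.1, 24.1 and 14.4 CPM (adjusted p = 0.0449), and it shares sequence with its neighbours of the same family, so its reads may be split. In these 3 genes FAD_527 was the highest library. The regulator Irf7 did not pass (log2 difference 1.66, adjusted p = 0.323). Of 12 MHC class I genes only H2-D1 passed. This classical class I heavy chain was at 239, 264 and 399 CPM in wild type and at 903, 923 and 579 CPM in 5xFAD (log2 difference 1.42, SE 0.32, adjusted p = 0.036), and it too has near-identical relatives. None of 10 MHC class II genes passed (median 0.38). Cd74, the invariant chain, was at 17.8, 10.5 and 27.9 CPM against 82.1, 72.3 and 46 CPM (adjusted p = 0.372). Lgals3bp, a secreted glycoprotein that binds galectin-3, rose 3.39-fold (107, 105 and 143 CPM against 429, 479 and 294 CPM, adjusted p = 0.024). The calls of this group depended on the fit and on single libraries. None of the 3 interferon calls was made without a filter on low counts or with limma voom, while 7 members were called with DESeq2 and 5 with only the germ-free groups in the fit. The adjusted p of H2-D1 was 0.149 with no filter, 0.0535 with the filter at 5 CPM and 0.104 with limma voom. Without WT_530 the adjusted p was 0.131 for Ifi27l2a, 0.141 for Ifitm3, 0.222 for H2-D1 and 0.167 for Lgals3bp. Without FAD_527 it was 0.0657, 0.083, 0.165 and 0.13, and without FAD_526 it was 0.0595, 0.0595, 0.163 and 0.104 for the same genes. Without WT_529 it was 0.0754 for Ifi27l2a, 0.135 for H2-D1 and 0.0965 for Lgals3bp, and without WT_532 it was 0.0817 for Ifitm3 and 0.0644 for Lgals3bp. Oas1a missed the threshold without any 1 of the 6 libraries (0.0848 to 0.177).

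Several genes were practically absent from wild-type microglia and present in each 5xFAD library. Baiap2l2, a membrane-shaping BAR-domain protein, had no count in any wild-type library and stood at 34.5, 22.8 and 23.2 CPM in 5xFAD, at least 166-fold higher against a floor of 3 counts per library. Mamdc2, which encodes a secreted protein with MAM domains, had none in wild type and 22, 11.7 and 5.85 CPM in 5xFAD (at least 81.6-fold, and at least 54.3-fold without FAD_526). Tcap, the titin cap protein known from the muscle sarcomere, had none in wild type and 10.4, 7.08 and 9.44 CPM in 5xFAD (at least 55.7-fold, adjusted p = 0.000756). Lgi2, a secreted leucine-rich repeat protein, was at 8.47, 10.1 and 2.73 CPM (at least 44-fold), and Hpse, heparanase, which cuts heparan sulphate chains, was at 5.91, 6.6 and 4.06 CPM (at least 34.2-fold), both with no count in wild type. Etl4 had 1 count in all 3 wild-type libraries together and 35.9, 41.9 and 26.1 CPM in 5xFAD, a ratio with a counting interval of 340 to 75000. The muscle-type cytochrome oxidase subunit Cox6a2 was at 0.103, 1.1 and 0.57 CPM in wild type and at 11.2, 9.47 and 5.08 CPM in 5xFAD (log2 difference 3.86, SE 0.71, adjusted p = 0.00819). Its adjusted p was 0.0611 with only the germ-free groups in the fit and 0.0652 with limma voom. The groups of all these genes were separate, though the depth of the libraries (a floor of 0.128 to 0.183 CPM) limits what can be said of wild type. Tcap kept an adjusted p of at most 0.00875 in all 13 alternatives tried for it. Mamdc2 missed the threshold without WT_529, WT_530, WT_532 or FAD_526 (0.0527, 0.0989, 0.0644 and 0.0595), Hpse without WT_530 or WT_532 (0.0901 and 0.0598), and Lgi2 without any 1 of the 6 libraries (0.0645 to 0.179).

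Of 25 proliferation genes 1 rose and 24 did not pass (median log2 difference 0.68). Mki67, the marker Ki-67 of cycling cells, had 8 counts in the 3 wild-type libraries (0.155, 0 and 0.259 CPM) and was at 4.69, 11.1 and 7.31 CPM in 5xFAD (log2 difference 5.70, SE 1.32, adjusted p = 0.0393). The call was lost when any 1 of the 6 libraries was left out (adjusted p 0.0753 to 0.202). Top2a, the topoisomerase of dividing cells, was at 0.258, 0 and 2.59 CPM against 9.14, 6.6 and 6.41 CPM and did not pass (adjusted p = 0.356). Outside the list and chosen after their values were seen, the mitotic genes Pbk, Psrc1 and Cenpi had no count in wild type and rose to 0.426 to 1.86 CPM, 1.06 to 2.86 CPM and 2.13 to 4.57 CPM. Pbk and Psrc1 missed the threshold without any 1 of the 6 libraries (0.0661 to 0.166 and 0.0645 to 0.149). Cenpi missed it without WT_529, WT_530, WT_532 or FAD_526 (0.0572 to 0.104), and all 3 missed it with limma voom (0.24, 0.0682 and 0.0685).

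Other genes that rose, likewise chosen after their values were seen, included membrane and matrix proteins and metabolic enzymes. Sulf2, an extracellular heparan sulphate sulphatase, was at 6.14, 3.88 and 4.56 CPM against 36.1, 45.8 and 32.7 CPM (7.84-fold, adjusted p = 0.00142). Pdcd1, the inhibitory receptor PD-1, was at 1.5, 3.48 and 0.363 CPM against 31.1, 16.6 and 17.6 CPM (12.3-fold, adjusted p = 0.00604). Myo1e, an unconventional myosin, rose 5.31-fold (adjusted p = 0.0027). The serine synthesis enzyme Psat1 was at 42.7, 20.8 and 35.3 CPM against 129, 99.2 and 113 CPM (3.44-fold, adjusted p = 0.0174). Sulf2 and Myo1e kept their calls in all alternatives, Pdcd1 in all but limma voom (0.0508), and Psat1 missed the threshold without WT_530, WT_532 or FAD_526 (0.12, 0.0569 and 0.082) and with no filter (0.0776). Acaca, acetyl-CoA carboxylase, which starts fatty acid synthesis, was the 1 of 12 tested genes of acetate and acetyl-CoA use that rose (9.13, 8.57 and 8.44 CPM against 23.5, 34.1 and 25.1 CPM, adjusted p = 0.0331), a call lost without any 1 of the 6 libraries (0.0685 to 0.16). The acetate-activating enzymes Acss1 (log2 difference -0.07, 95% interval -0.43 to 0.29) and Acss2 (0.75, -0.54 to 2.04) did not pass. Aplp2, a relative of the amyloid precursor protein, was the 1 of 14 amyloid-processing genes that rose (178, 128 and 165 CPM against 305, 264 and 290 CPM, 1.82-fold, adjusted p = 0.00604, and 0.074 without WT_530), and App itself did not pass (log2 difference 0.31, adjusted p = 0.374). The mitochondrially encoded complex I subunit mt-Nd5 rose 1.58-fold (adjusted p = 0.0123, and 0.0575, 0.058 and 0.0965 without WT_530, WT_532 or FAD_526), 1 of 8 tested mitochondrial genes, where the share of mitochondrial counts was 0.273 to 0.347% in wild type and 0.329 to 0.387% in 5xFAD.

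The 34 genes that fell did so by smaller amounts than the disease-associated genes with the largest rises. Hivep1, a zinc-finger factor that binds immune enhancers, was at 25.2, 29.1 and 30.4 CPM in wild type and at 11.3, 11.5 and 8.89 CPM in 5xFAD (log2 difference -1.42, SE 0.31, adjusted p = 0.0302). Batf3, a basic leucine zipper factor known for its role in dendritic cells, was at 16.4, 36.2 and 35.5 CPM against 12, 10.2 and 10.7 CPM (-1.42, SE 0.28, adjusted p = 0.0142). WT_529 was the wild-type library nearest to the 5xFAD ones for both genes. It was the lowest wild-type library in 23 of the 34 genes that fell, and WT_530 was the highest in 18. Both genes lost their calls when any library but WT_529 was left out (adjusted p 0.0846 to 0.133 for Hivep1 and 0.0551 to 0.104 for Batf3). Eps8, an actin-capping adaptor, was at 22.6, 23.4 and 29.6 CPM against 10.1, 8.52 and 10.9 CPM (log2 difference -1.36, adjusted p = 0.034). Rps6ka5, the nuclear kinase MSK1, was at 54.5, 53.5 and 55.8 CPM against 27, 28.4 and 29.8 CPM (-0.94, adjusted p = 0.0302). Cbfa2t3, a transcriptional co-repressor, was at 66.5, 70.8 and 88.2 CPM against 48.3, 31.5 and 37.6 CPM (-0.94, adjusted p = 0.0422). Fchsd2, an endocytic membrane adaptor, was at 257, 301 and 304 CPM against 182, 137 and 137 CPM (-0.92, SE 0.14, adjusted p = 0.00143). Hpgd, which inactivates prostaglandins, was at 716, 804 and 810 CPM against 485, 412 and 397 CPM (-0.85, SE 0.13, adjusted p = 0.00143). Ddx17, an RNA helicase, was at 176, 197 and 165 CPM against 105, 116 and 94.6 CPM (-0.77, SE 0.12, adjusted p = 0.00174). Zswim6 (-0.84), the long non-coding RNA Mir99ahg (-0.82) and the clone-named transcript CT010467.1 (-0.80) also fell. Eps8, Rps6ka5, Cbfa2t3 and CT010467.1 missed the threshold without any 1 of the 6 libraries (highest adjusted p 0.182, 0.147, 0.235 and 0.165). Zswim6 missed it without WT_530, FAD_526 or FAD_531 (0.229, 0.156 and 0.0939) and Mir99ahg without WT_530, FAD_526 or FAD_527 (0.121, 0.114 and 0.0857). Fchsd2, Hpgd and Ddx17 stayed past the threshold in all 13 alternatives run for them. Further genes that fell, chosen after their values were seen, were the macrophage transcription factor Maf (409, 451 and 419 CPM against 264, 266 and 271 CPM, adjusted p = 0.00483), the factor Zeb2 (409, 458 and 366 CPM against 265, 245 and 284 CPM, adjusted p = 0.00436), the DNA-sensing adaptor Sting1 (528.5, 679 and 646 CPM against 425, 349 and 385 CPM, adjusted p = 0.00882) and the actin-binding protein Marcks (1128, 1321 and 1365 CPM against 895, 877 and 855 CPM, adjusted p = 0.0106). Nav3, named by the rule for the difference between germ-free and SPF mice, also fell (565, 747 and 529.3 CPM against 393.7, 381 and 367 CPM, adjusted p = 0.00882). Maf kept its call in all alternatives. The adjusted p without WT_530 was 0.0575 for Zeb2, 0.0893 for Sting1, 0.104 for Nav3 and 0.0838 for Marcks. Sting1 also missed the threshold without FAD_527 (0.0798), Nav3 with only the germ-free groups in the fit (0.0573), and Marcks without WT_532, FAD_527 or FAD_531 (0.0592, 0.0587 and 0.0568).

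**Figure D3:**
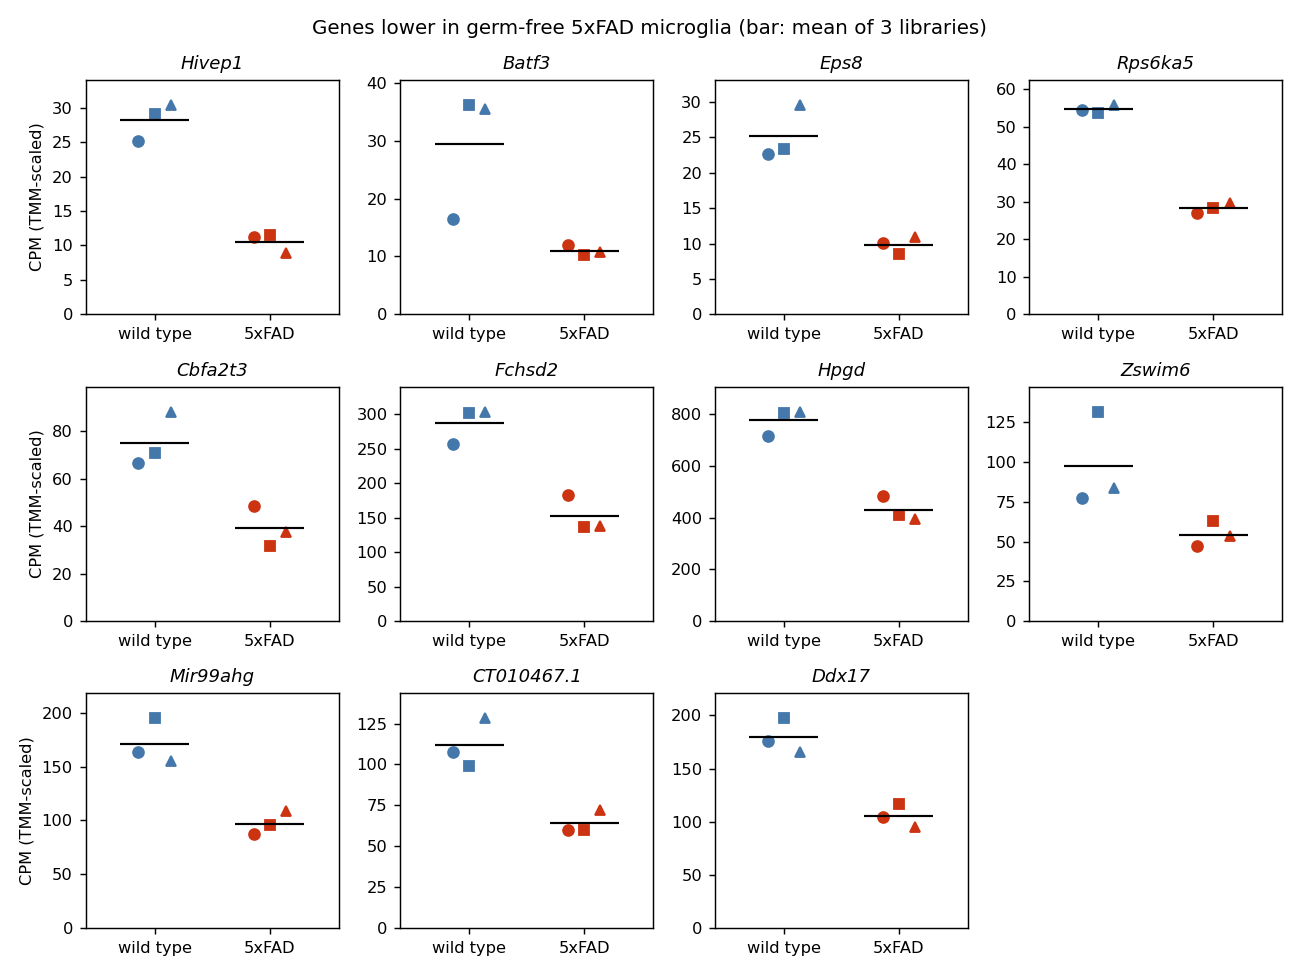
CPM (TMM-scaled, linear axis from 0) of 11 genes with large falls, in each germ-free hippocampus library, wild type in blue (circle WT_529, square WT_530, triangle WT_532) and 5xFAD in red (circle FAD_526, square FAD_527, triangle FAD_531); the bar is the mean of 3. All 5xFAD libraries lie below all wild-type ones in every panel. WT_529 was the lowest wild-type library for Batf3, as in 23 of all 34 genes that fell.

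Batf3 and Fchsd2 are shown in the same way because both hold the PU.1-type word. The Batf3 stretch is on the plus strand at chr1:191098164-191098423 and the Fchsd2 stretch on the plus strand at chr7:101108525-101108784, on build GRCm38.p6 from RefSeq.
Batf3: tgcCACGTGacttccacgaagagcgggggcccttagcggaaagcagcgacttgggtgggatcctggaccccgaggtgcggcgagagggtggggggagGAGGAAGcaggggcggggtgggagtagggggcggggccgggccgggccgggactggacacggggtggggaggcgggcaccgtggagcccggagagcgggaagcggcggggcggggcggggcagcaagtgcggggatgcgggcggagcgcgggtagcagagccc
Fchsd2: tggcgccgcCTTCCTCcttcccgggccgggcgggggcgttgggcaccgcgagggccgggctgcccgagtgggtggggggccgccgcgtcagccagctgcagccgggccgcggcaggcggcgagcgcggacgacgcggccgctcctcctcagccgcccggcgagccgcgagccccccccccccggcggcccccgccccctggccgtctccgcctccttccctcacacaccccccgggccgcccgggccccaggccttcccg
GAGGAAG begins 153 bases before the start in Batf3, beside a CACGTG at 247 bases, and 241 bases before in Fchsd2, where it reads on the other strand. Windows were on file for 20 of the 34 genes that fell (26 windows). GAGGAAG was present in 8 of them (30.8%), against 13.8% of the windows of all tested genes, CACGTG in 3.8% against 9.7%, and TGANTCA in 3.8% against 5.2%. With 26 windows, some of them alternative starts of 1 gene, these shares are a description.

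Few homeostatic genes passed the test. Of 23 tested, 1 fell, none rose and 22 did not pass, with a median log2 difference of -0.15. P2ry12, the purinergic receptor that guides microglial processes, was at 5200, 5234 and 4875 CPM in wild type and at 3847, 3734 and 4138 CPM in 5xFAD (log2 difference -0.39, 95% interval -0.64 to -0.13, adjusted p = 0.167). Cx3cr1, the fractalkine receptor, was at 7300, 7812 and 7603 CPM against 5605, 5876 and 5879 CPM (-0.39, 95% interval -0.62 to -0.16, adjusted p = 0.11). Gpr34 was at 2280, 2189 and 2174 CPM against 1739, 1584 and 1747 CPM (-0.39, adjusted p = 0.134). In these 3 genes each 5xFAD library lay below each wild-type library, and the same held for 10 of the 23 (7.56% of all tested genes). Tmem119 (log2 difference -0.14, 95% interval -0.39 to 0.12) and the transcription factor Sall1 (-0.28, -0.58 to 0.01) did not pass. Csf1r, the receptor on which microglial survival depends, had a log2 difference of 0.18 (-0.06 to 0.42).

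Other lists gave few or no calls. None of 12 genes of Trem2 and Tyrobp signalling passed (median log2 difference 0.14), and none of 11 complement genes (0.06). C1qa was at 3535, 3496 and 4205 CPM in wild type and at 3562, 3476 and 3455 CPM in 5xFAD. None of 23 tested inflammatory cytokine and NF-kB target genes passed (median -0.09): Tnf had a log2 difference of -0.59 (95% interval -1.50 to 0.32) and Il1b of -0.09 (-2.20 to 2.01). Among 24 immediate-early and dissociation genes the stress factor Atf3 rose (11.8, 21.3 and 17.4 CPM against 45.5, 47.1 and 28.4 CPM, adjusted p = 0.0188), a call lost without WT_529, WT_532, FAD_526 or FAD_527 (0.082, 0.0643, 0.102 and 0.1). The summed level of that list was 4510 to 8173 CPM in wild type and 4753 to 5465 CPM in 5xFAD, with the high value in WT_530. None of 22 glycolysis genes (median 0.36), 22 unfolded protein response genes (-0.01), 12 glucocorticoid-responsive genes (0.08) and 30 ribosomal protein genes (0.24) passed. Yet 20 of the glycolysis and 27 of the ribosomal genes had a log2 difference above 0. In 10 glycolysis genes each 5xFAD library lay above each wild-type one (9.11% of all tested genes), and in 1 below (7.56%). In the respiratory complex II and TCA cycle list 1 of 23 fell, Idh2, the mitochondrial isocitrate dehydrogenase (210, 232 and 260 CPM against 178, 164 and 157 CPM, adjusted p = 0.0405, and 0.0965 to 0.183 without any library but WT_529), while Sdha (log2 difference 0.20, -0.05 to 0.45) and Sdhb (0.04, -0.21 to 0.29) did not pass. Among markers of other cells, the summed astrocyte list was 320 to 439 CPM in wild type and 475 to 482 CPM in 5xFAD, nearly all from the glutamate transporter Slc1a3, with 8 of its 9 genes detected and Gja1 at 0. Border macrophage markers summed to 1.97 to 9.74 CPM in wild type and 3.89 to 10.59 CPM in 5xFAD, and monocyte markers to 1.51 to 21.81 CPM and 10.23 to 17.26 CPM. The wild-type monocyte sums were 6.14, 1.51 and 21.81 CPM in WT_529, WT_530 and WT_532, with Chil3 at 14.5 CPM in WT_532 alone. All 5 tested monocyte genes had a log2 difference above 0 (median 2.03), against 3 of 7 border macrophage genes, and none passed. T and NK cell markers summed to 0.47 to 1.24 CPM in wild type and 1.37 to 2.55 CPM in 5xFAD, with 7 of 12 at 0 throughout, and endothelial and mural markers to 22.59 to 39.84 CPM and 35.18 to 40.5 CPM. The part of these cells in the results was not tested.

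**Figure D4:**
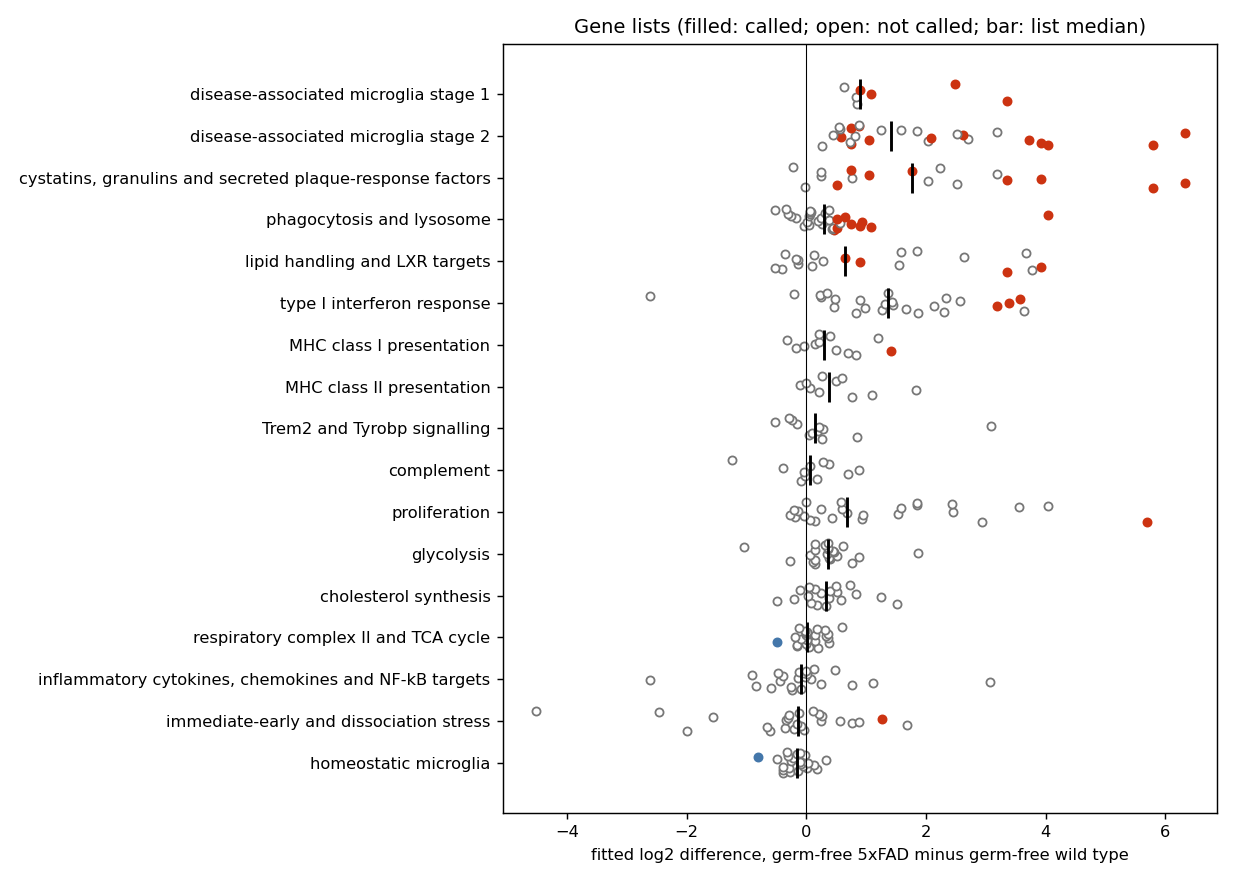
Fitted log2 difference (germ-free 5xFAD minus germ-free wild type) of each tested gene in 17 lists, 1 row per list; filled points passed the test (red higher, blue lower), open points did not, and the black bar is the list's median. The disease-associated rows lie to the right of 0 throughout, with medians of 0.89 and 1.41, and the homeostatic row is centred at -0.15.

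The same genotypes in the other housing states show how the germ-free values compare. In SPF hippocampus 62 genes rose (0.363% of those tested) and 35 fell (0.205%), and in acetate-treated germ-free hippocampus 313 rose (1.83%) and 115 fell (0.674%). The 3 contrasts share no library but share 1 estimate of the spread. Of the 95 genes that rose in germ-free mice, 27 also rose in SPF mice (28.4% of the germ-free and 43.5% of the SPF genes) and 69 in acetate-treated mice (72.6% and 22%). Of the 34 that fell, 5 also fell in SPF mice (14.7% and 14.3%) and 15 in acetate-treated mice (44.1% and 13%). None moved past the threshold the other way. Without SPF_FAD_2152, 200 genes rose (1.18%) and 127 fell (0.747%) in SPF mice, and 54 of the germ-free genes that rose (56.8%) and 8 of those that fell (23.5%) were among them. The 5 genes that fell in both were Hpgd, Kctd12, Maf, Marcks and Otulinl. Among the 33 disease-associated genes, 16 rose in germ-free, 15 in SPF (26 without SPF_FAD_2152) and 30 in acetate-treated mice. Their median log2 difference was 1.09, 1.09 (with SPF_FAD_2152 included) and 1.29, and all 33 were above 0 in each. The counts compare 3 libraries per genotype in germ-free mice with 4 in the other states, so they do not measure the size of the response. The count without SPF_FAD_2152 is in part fixed by how that library was singled out. For Cst7 the log2 difference was 5.79 in germ-free, 4.45 in SPF (4.86 without SPF_FAD_2152) and 5.94 in acetate-treated mice. For Apoe it was 3.35, 3.39 (3.76) and 3.42, and for Ank 2.62, 1.89 (2.18) and 2.85. For Lamp1 it was 0.45, 0.24 (0.29) and 0.54, and for Grn 0.52, 0.16 (0.21) and 0.70.

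**Figure D5:**
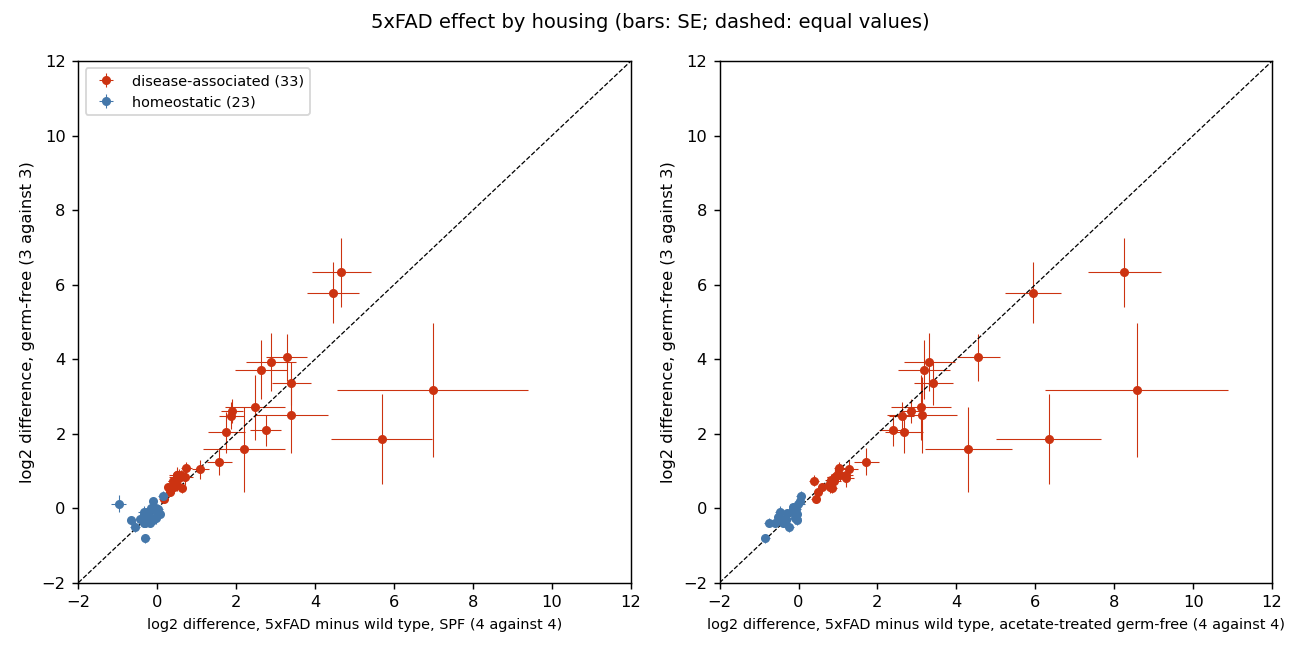
Fitted log2 difference (5xFAD minus wild type) in germ-free hippocampus, 3 against 3 libraries, against that in SPF hippocampus (left, 4 against 4) and in acetate-treated germ-free hippocampus (right, 4 against 4), for 33 disease-associated (red) and 23 homeostatic (blue) genes; bars are SE and the dashed line marks equal values. The germ-free value exceeds the SPF value in 24 of the 33 disease-associated genes with SPF_FAD_2152 included, as plotted, and in 20 of 33 without it. With it included, the median of this difference was 0.29 in the 33 genes and -0.009 over all tested genes.

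The difference of the 5xFAD effect between housing states was tested directly, and no gene passed. Germ-free minus SPF gave 0 calls in 17063 genes (0% higher and 0% lower) with 942 genes (5.52%) at unadjusted p under 0.05, and germ-free minus acetate-treated gave 0 calls (0% in each direction) with 905 (5.3%). DESeq2 called 15 and 7 genes. For Cst7 the germ-free effect minus the SPF effect was 1.33 on the log2 scale (95% interval -0.58 to 3.25), for Apoe -0.04 (-1.49 to 1.40), for Axl 0.76 (-0.79 to 2.32) and for Trem2 0.09 (-0.26 to 0.44). Without SPF_FAD_2152, a library singled out by its level of these same genes, the differences were 0.93 (0.10 to 1.76, unadjusted p = 0.0301, adjusted p = 0.748), -0.41 (-1.19 to 0.36), 0.38 (-0.43 to 1.19) and 0.00 (-0.32 to 0.33). For Ctsd the difference was 0.29 (-0.09 to 0.67), and 0.16 (-0.14 to 0.47) without that library. Ch25h, the cholesterol 25-hydroxylase, falls outside the rule for naming genes and had the lowest difference of the 33 disease-associated genes. It was at 0, 1.45 and 4.25 CPM in germ-free wild type and 5.3, 6.28 and 9.06 CPM in germ-free 5xFAD. Its effect was lower than in SPF mice by a log2 difference of -3.83 (unadjusted p = 0.0346, adjusted p = 0.88), and of -4.25 without SPF_FAD_2152 (adjusted p = 0.573). The smallest p belonged to Gpd1, the glycerol-3-phosphate dehydrogenase that links glycolysis to lipid synthesis. It was at 37.9, 20.3 and 35.3 CPM in germ-free wild type and 60.6, 64.8 and 63.4 CPM in germ-free 5xFAD, and at 20.8 ± 5.01 and 10.2 ± 3.36 CPM in SPF wild type and 5xFAD (mean ± SD, n = 4). The difference of effects was 2.02 (SE 0.37, 95% interval 1.26 to 2.79, adjusted p = 0.252), and 2.29 with adjusted p = 0.0313 without SPF_FAD_2152, which was the only call made by that fit. Gpd1 also passed with DESeq2 (adjusted p = 0.000804), with no filter (0.0248) and without WT_530, GFA_WT_518 and SPF_FAD_2152 (0.0363). Tmem183a (1.19, adjusted p = 0.252) and Nav3 (-0.85, adjusted p = 0.252) came next, with 1.27 (adjusted p = 0.237) and -0.83 (adjusted p = 0.309) without SPF_FAD_2152. Both passed with DESeq2 (adjusted p = 0.00191 and 0.00302).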

How the data were processed

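RNA from FACS-sorted microglia was sequenced, and the deposited table holds raw read counts per gene, whole numbers with no normalization. Per the submitters' processing notes, STAR 2.5.2b, featureCounts 1.5.1 and build GRCh38 were used; the symbols are those of mouse, so gene coordinates are given for RefSeq sequences only. The handling of strand and of reads shared between genes is not given in the sources used here. Groups were taken from the sample titles. Genes were filtered with filterByExpr (minimum count 10), scaled by TMM and fitted with edgeR 4.0.16 (quasi-likelihood, robust, two-sided, R 4.3.3) over all 22 hippocampus libraries in 6 groups. Adjusted p-values are Benjamini-Hochberg over all 17063 genes tested of 53546 in the table, with calls at 0.05, unless another fit is named. CPM values are TMM-scaled, SE is the log2 difference divided by the square root of the test's F, and 95% intervals come from the same fit. The scripts were tested on simulated data. DESeq2 1.42.0, limma 3.58.1 (voom with quality weights), other filters and scalings, and leaving out libraries were the alternatives. The titles give different animals, so p-values measure the spread between these libraries. For libraries of 16382823 to 22532410 counts, a floor of 3 counts equals 0.128 to 0.183 CPM, and it covers counting error only.

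The genes named are up to 12 per direction with the largest log2 difference among those called at 5 CPM or more in a group (predicted models left out), up to 3 with the smallest p per list (up to 10 where more than 3 were called), a fixed set of microglial and study genes, and up to 5 per direction for the difference between germ-free and SPF mice. Others outside the lists are named as chosen after their values were seen. Some list members are named beyond the rule and carry no such mark. They are Fth1, Ch25h, Csf1r, Mertk, Fcgr3, Abca1, Abcg1, Fabp3, Irf7, Top2a, Tnf, Il1b, C1qa and some markers of other cells. Some genes that the rule names are not reported here. The members, lists and tests were chosen with earlier results of these data known.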

Additional observations from a re-analysis of the deposited data

Results flagged for a closer look

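Library measures of the 4 SPF and acetate-treated hippocampus groups were screened for single values far from the rest of their group. Of 24 tests, where chance flags about 1 in 20, 3 found such a value. The untreated germ-free groups, with 3 libraries each, are too small for the screen. SPF 5xFAD library SPF_FAD_2142 had 17419 genes detected against 19371 to 19745 in the other 3, with a total of 5743891 counts against 17798380 to 20775022. SPF wild-type library SPF_WT_4 was not flagged but was as shallow. It held 5862938 counts against 18478981 to 21150484 in the rest of its group, and 17241 genes detected against 18980 to 19792. Acetate-treated wild-type library GFA_WT_518 had 16607 genes detected against 19142 to 19483, with 21746850 counts against 15060925 to 19412496. The summed level of erythroid genes was 73.57 CPM in the third SPF wild-type library and 0.19 to 1.36 CPM in the rest of its group. These libraries enter the germ-free results through the shared estimate of the spread and through the comparisons between housing states.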

How the results depend on the processing

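Numbers of genes called depended strongly on the tool and on single libraries. In germ-free hippocampus the main 95 higher and 34 lower became 284 and 145 with DESeq2, and 18 were lower when only the germ-free groups entered the fit. Leaving out each library in turn gave 26 to 87 higher and 5 to 36 lower, the fewest without WT_530 (26 and 5). Of the stage 1 disease-associated genes, 4 in the main result, 7 were called with DESeq2 and 7 with only the germ-free groups in the fit. With a library left out, 3 to 4 were called. Of the stage 2 disease-associated genes, 12 in the main result, 19 were called with DESeq2, 6 with limma voom and 5 to 10 with a library left out. With only the germ-free groups 16 were called, with the filter at 5 CPM 16, with no filter 9, and without WT_530, GFA_WT_518 and SPF_FAD_2152 17. Of the lysosomal genes, 9 in the main result, 4 to 9 were called with a library left out. In SPF hippocampus the 62 higher and 35 lower became 206 and 111 with DESeq2, 23 lower with no filter, 6 and 4 with only the SPF groups, 29 higher with limma voom, and 18 to 200 and 7 to 127 with a library left out, the most without SPF_FAD_2152. Without the 3 libraries that stand apart (WT_530, GFA_WT_518 and SPF_FAD_2152), a choice made after the data were seen, they became 277 and 180, while 118 were higher and 27 lower in germ-free hippocampus, 91 of these 145 genes being among the main 129. The difference between germ-free and SPF effects, 0 genes in the main result, gave 15 with DESeq2, 1 with no filter, 1 without the 3 libraries and 0 to 1 with a germ-free library left out, and that between germ-free and acetate-treated effects 7 with DESeq2 and 0 to 2 with a germ-free library left out. The cause of these shifts was not tested.

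Of 55 named genes with a call, none changed sign in any alternative and 11 kept the call in all: Tcap, Fchsd2, Hpgd, Ddx17, Ctsb, Lyz2, Ctsd, Ank, Gusb, Hexa and Chtop. Limma voom ended the calls of Cst7, Igf1, Axl, Baiap2l2 and Etl4 (adjusted p 0.249, 0.172, 0.104, 0.258 and 0.134), which held in all other alternatives. Of 62 named genes without a call 42 kept that status in all, and 2 with values near 0 changed sign. With a library left out, Sdhb ranged from -0.0436 to 0.1288 on the log2 scale and Acss1 from -0.2028 to 0.0202. No paired analysis was possible because the germ-free 5xFAD and wild-type libraries come from different animals and share no replicate number.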

Other observations

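Several further genes with calls fell outside the lists described, and all were picked after their values were seen. The lysosomal peptidase Cpq rose with a log2 difference of 1.53. Alox5ap, the helper of leukotriene synthesis, and Cysltr1, a leukotriene receptor, fell (-0.55 for each). These 3 missed the threshold of edgeR's quasi-likelihood test without any 1 of the 6 germ-free libraries (adjusted p 0.0601 to 0.18, 0.0529 to 0.201 and 0.0912 to 0.205). Extracellular and matrix-acting proteins with no count in any germ-free wild-type library included Lox, the collagen cross-linking enzyme (2.56, 7.24 and 3.08 CPM in FAD_526, FAD_527 and FAD_531, at least 26.6-fold higher, and at least 17.5-fold without FAD_527), Dkk2, a modulator of Wnt receptors (7, 1.01 and 1.32 CPM, at least 19.3-fold higher, and at least 7.24-fold without FAD_526), and Colec12, a scavenger receptor with a collagen-like stalk (at least 13.6-fold higher). Their calls were lost without single libraries, those of Dkk2 and Lox without any wild-type one or FAD_526 (and without FAD_527 for Lox) and that of Colec12 without any of the 6 (highest adjusted p by edgeR 0.104, 0.129 and 0.156, without WT_530). Lox and Dkk2 were also called higher in SPF and acetate-treated mice, and Colec12 in acetate-treated mice.

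The mean level of the proliferation marker Mki67 was 0.138 CPM in germ-free, 4.08 CPM in SPF and 4.63 CPM in acetate-treated wild-type mice, and 11.9 and 12.5 CPM in SPF and acetate-treated 5xFAD mice. The difference of its 5xFAD effect between germ-free and SPF mice was 4.19 on the log2 scale (95% interval 1.01 to 7.37, adjusted p = 0.818 by edgeR's quasi-likelihood test), and 4.11 without SPF_FAD_2152. It was the largest such difference among the 25 proliferation genes, and the interval is not adjusted for that choice. It also rests on few counts in germ-free wild type. The differences between the wild-type groups themselves were not tested.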
